A study of Mus musculus with 22 samples.

Results

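The genes described here are 42 genes of protein folding, translocation, degradation and stress signalling in the endoplasmic reticulum (ER), out of 21450 gene symbols measured in whole mouse pancreas. The list was selected on ER function and with the levels in these libraries already known from earlier results. Every probe whose gene symbol was in the list was taken, which gave 65 probes. Each gene is described by its probe with the highest mean count. TempO-Seq measures a transcript by ligating a pair of short detector oligos on it and sequencing the ligated product, so levels of different genes are not compared here. C57Bl/6 females received corn oil, the control, or TCDD (a chlorinated dioxin that binds the aryl hydrocarbon receptor) at 20 ng/kg per day, injected under the skin 2 times per week. Dosing began ahead of mating and ran to birth, when dams and pups were sampled, with 1 pup of each sex per litter. Pups were exposed through the dam. The labels gave 4 control dams, 3 control female pups, 3 control male pups, and 4 TCDD animals of each of these 3 kinds, 22 libraries in all. A library is named here by its label and its dam or litter number.

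Acinar cells of the pancreas make and secrete large amounts of digestive enzymes, which enter the ER through the Sec61 translocon, lose their signal peptide, and are folded by chaperones and disulfide isomerases. Proteins that fail to fold are retrotranslocated and degraded (ER-associated degradation, ERAD), or parts of the ER are removed by autophagy (ER-phagy). Unfolded protein in the ER is sensed by Ern1 (IRE1), Eif2ak3 (PERK) and Atf6, which act through the transcription factors Xbp1, Atf4 and Atf6 itself on chaperone, ERAD and stress genes. This is the unfolded protein response. The list held 18 chaperones and folding enzymes, 8 genes of the translocon and signal peptide processing, 8 of degradation and ER-phagy, and 8 sensors and stress response genes.

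The labelled stages did not match the genes of each stage, so the libraries are described in classes formed from measured values. A library was called newborn type when its summed Afp count (alpha-fetoprotein, made by fetal endoderm) exceeded its summed Pnlip count (pancreatic lipase, an enzyme of the mature acinar cell), and adult type otherwise. The rule gave 14 newborn-type and 8 adult-type libraries. The libraries nearest to equality had an Afp to Pnlip ratio of 8.29 in the newborn type and 2.78e-05 in the adult type. Newborn type held 8 libraries labelled control (2 dams and 6 pups) and 6 labelled TCDD (2 dams and 4 pups). Adult type held 2 labelled control, both dams, and 6 labelled TCDD (2 dams and 4 pups). In 13 of the 22 libraries the stage genes or the Y-linked genes went against the label. Since the classes came from the measured values and the list was chosen with results known, the differences between the classes are a description, with no test. Fewer cells of a type and less RNA per cell cannot be told apart in whole tissue.

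Total counts were 11223816 to 34911410 per library, and 17614 to 26420 probes were detected. Adult-type libraries spent 69.8 to 74.7% of their counts on their 20 most abundant probes, and newborn-type libraries 47.1 to 59.6%. Values are therefore given on 2 scales. CPM is counts-per-million of the library total, and TMM-scaled CPM divides by a total corrected with the trimmed mean of M-values, which sets the bulk of genes equal. The median log2 difference between the types over the 11508 genes with a mean count of at least 10 was -0.04 on the TMM scale and -1.39 as CPM, a shift of -1.36. All 42 genes of the list passed that minimum. Summed acinar markers (14 genes) were 61104 to 119780 TMM-scaled CPM in newborn-type and 389309 to 645205 in adult-type libraries. As CPM these sums were 109505 to 145970 and 203653 to 228768. They include Pnlip, which formed the classes, so their separation is partly set by the rule. Pnlip measured 22.3 to 91.6 CPM in the newborn type and 40765 to 48924.5 in the adult type. Mesenchymal markers (7 genes) summed to 971 to 1458 and 101 to 211, and hepatocyte markers (6 genes) to 233 to 699 and 7.44 to 40.7. Their part in the differences below was not tested.

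Several of the 42 genes share sequence elements known from the unfolded protein response, and these are shown first. RefSeq promoter windows (GRCm38.p6, 250 bases before to 50 after the start) were found for 37 of the 42 genes, with none for Manf, Hyou1, Sec61a1, Derl1 and Atf6. The ER stress element ERSE (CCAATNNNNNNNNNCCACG, either strand), a site of Atf6 and Xbp1 with NF-Y, was in 9 of these 37 genes (24.3%) and in 37 of all 27025 genes with a window (0.137%). The 9 were Hspa5, Hsp90b1, Calr, Canx, Pdia6, Dnajc3, Creld2, Derl3 and Syvn1. The shorter ERSE-II (ATTGG, 1 base of any kind, then CCACG) was in Dnajb11 and Herpud1, 5.41% of the 37 against 0.0444% of all genes. The core of the amino acid response element (TGATGNAA), bound by Atf4 with a C/EBP factor such as Ddit3, was in Herpud1, Trib3 and Chac1, 8.11% against 4.51%. The core of the Xbp1 element UPRE (TGACGTGG) was in none of the 37 windows and in 0.714% of all genes. The motifs were searched on both strands and no 2 of them overlap in these genes. A match describes the letters and shows no binding. The list was selected on ER function, so its shares beside those of all genes are a description and no test. The 250 bases before the start are printed for 5 genes, 5′ to 3′ on the strand of the gene, with the fixed letters of the ERSE or ERSE-II and the whole core of the amino acid response element in capitals (matches on the opposite strand appear reversed and complemented).
Hspa5, chr2:34771840-34772089 (+ strand): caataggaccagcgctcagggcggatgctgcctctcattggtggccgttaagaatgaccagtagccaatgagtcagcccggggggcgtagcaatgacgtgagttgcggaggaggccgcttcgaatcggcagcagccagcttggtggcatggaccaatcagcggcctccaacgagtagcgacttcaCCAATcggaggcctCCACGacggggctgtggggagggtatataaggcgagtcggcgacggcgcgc
Hsp90b1, chr10:86705445-86705694 (- strand): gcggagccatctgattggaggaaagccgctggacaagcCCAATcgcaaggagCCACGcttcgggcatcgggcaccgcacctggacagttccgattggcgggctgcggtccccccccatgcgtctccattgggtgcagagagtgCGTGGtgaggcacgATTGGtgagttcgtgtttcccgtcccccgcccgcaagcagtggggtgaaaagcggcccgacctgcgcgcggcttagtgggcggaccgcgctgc
Creld2, chr15:88819396-88819645 (+ strand): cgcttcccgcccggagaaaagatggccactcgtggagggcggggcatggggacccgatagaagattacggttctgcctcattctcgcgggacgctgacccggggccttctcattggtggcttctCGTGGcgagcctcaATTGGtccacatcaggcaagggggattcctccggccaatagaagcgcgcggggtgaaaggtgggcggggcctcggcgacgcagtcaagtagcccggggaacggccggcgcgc
Herpud1, chr8:94386179-94386428 (+ strand): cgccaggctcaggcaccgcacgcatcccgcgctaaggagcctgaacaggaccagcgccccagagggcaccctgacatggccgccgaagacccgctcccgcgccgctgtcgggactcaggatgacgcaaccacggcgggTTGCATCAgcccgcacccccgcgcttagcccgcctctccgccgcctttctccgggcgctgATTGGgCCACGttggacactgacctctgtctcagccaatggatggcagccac
Chac1, chr2:119350992-119351241 (+ strand): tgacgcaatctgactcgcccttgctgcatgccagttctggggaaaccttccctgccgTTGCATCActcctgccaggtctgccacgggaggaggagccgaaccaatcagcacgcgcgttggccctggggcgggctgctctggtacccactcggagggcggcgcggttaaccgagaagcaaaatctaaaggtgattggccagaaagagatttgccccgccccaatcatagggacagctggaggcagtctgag
The Hspa5 element began 65 bases before the start. Hsp90b1 held an element on each strand, at 212 and 107 bases. Creld2 held 1 on the opposite strand at 126 bases. Herpud1 had the ERSE-II at 52 bases and the amino acid response core at 112, and Chac1 had that core alone, at 193. The 11 genes with an ERSE or ERSE-II had a median log2 difference between the types of 1.34 on the TMM scale (0.24 to 2.13), and the 26 without had 0.79 (-0.49 to 3.20), so the ranges overlap.

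On the TMM scale 23 of the 42 genes were higher in every adult-type than in every newborn-type library, against a background of 10.1% of all genes, and 0 were lower in every one, against 12.8%. As CPM of the total the picture turned: 0 genes were higher without overlap (background 0.452%) and 16 were lower without overlap (background 71.9%). The median difference of the list was 0.95 on the TMM scale and -0.81 as CPM, above the medians over all genes of -0.04 and -1.39 on the same scales. Retreg1, Creld2, Dnajc3 and Chac1 had a higher mean in the adult type on both scales. Another 36 genes had a higher mean on the TMM scale and a lower one as CPM, and Pdia3 and Trib3 had a lower mean on both. So the list stood above most genes in the adult type, while its share of all transcripts was lower there. Of 19 genes with several probes, 17 had probes of 1 sign on the TMM scale, and the exceptions were Manf and Trib3. Whether the classes overlapped differed between the probes of some genes, such as Hspa5, Hsp90b1, Pdia6 and Uggt1.

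**Figure D1:**
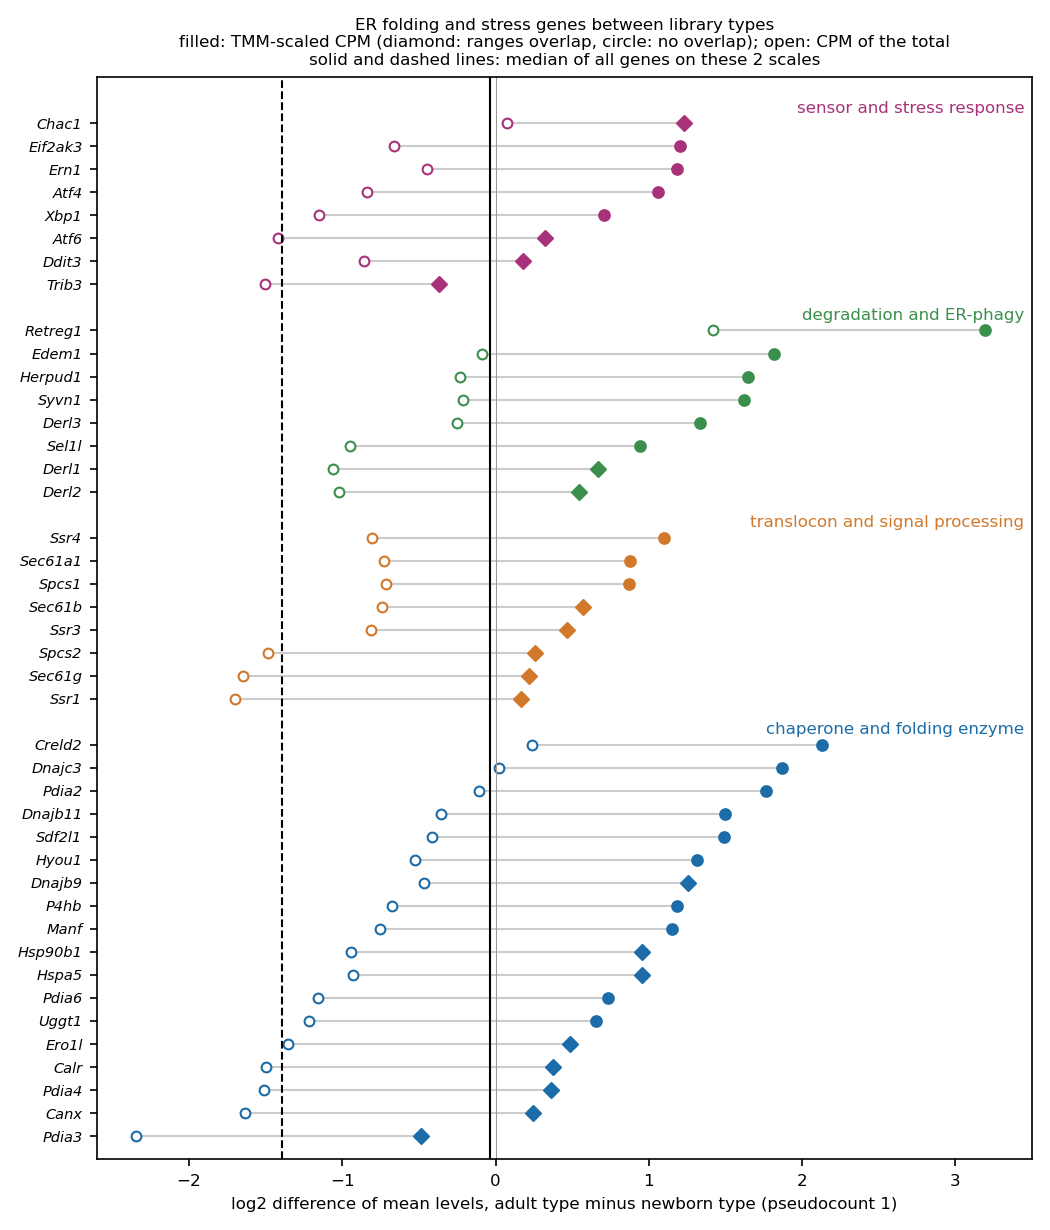
Log2 difference of the mean level, adult type minus newborn type, for each of the 42 genes by role, as TMM-scaled CPM (filled) and as CPM of the library total (open). The direction of 36 genes turns with the scale, while 40 of the filled points lie right of the solid line, the median of all genes at -0.04.

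Among the chaperones and folding enzymes, 10 of 18 were higher without overlap on the TMM scale, against 10.1% of all genes. The median difference was 1.05 (-0.84 as CPM, with 7 lower without overlap, against 71.9% of all genes). Hspa5 (BiP) is the Hsp70 chaperone of the ER and holds the 3 stress sensors inactive. It measured 365 to 646 TMM-scaled CPM in newborn-type libraries (median 432) and 599.7 to 1644 in adult-type libraries (median 816). Only the lowest adult-type library, TCDD male pup 10, fell within the newborn range. The difference was 0.95 (log2), and -0.93 as CPM. Hsp90b1 (GRP94), the Hsp90 of the ER, measured 108 to 159 (median 131) and 140 to 463 (median 248), and the classes overlapped here as well. For both genes the overlap depended on the probe. On the TMM scale the other Hsp90b1 probe (1.15) and another Hspa5 probe (0.84) were higher in every adult-type library. The remaining Hspa5 probe (0.77) overlapped.

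Genes that act on Hspa5 were further apart than Hspa5 itself. Dnajc3 (p58IPK), a co-chaperone that also inhibits eIF2α kinases, measured 12.1 to 20.9 TMM-scaled CPM in the newborn type (median 16.5) and 42.6 to 99.4 in the adult type (median 60.8), a log2 difference of 1.87 without overlap (0.02 as CPM). Dnajb11 measured 57.5 to 104 and 175 to 267, a difference of 1.50 (-0.36 as CPM). Sdf2l1, which works with the DnaJ proteins of the ER, measured 97.4 to 175 and 239 to 496, with 1.49 (-0.42 as CPM). Hyou1, the nucleotide exchange factor of Hspa5, measured 17.7 to 30.1 and 50.4 to 104, with 1.31 (-0.53 as CPM). Dnajb9 (ERdj4), which hands Hspa5 to Ern1, measured 4.92 to 9.51 and 8.80 to 28.6, and its classes overlapped through 1 adult-type library, TCDD male pup 8.

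Creld2, a secreted ER stress protein with isomerase activity, had the largest difference of the chaperone group. It measured 64.3 to 117 TMM-scaled CPM in the newborn type (median 82.0) and 239 to 668 in the adult type (median 336), a log2 difference of 2.13 (0.24 as CPM, where the classes overlapped). Manf, a small ER protein that is secreted under stress, measured 158 to 255 and 307 to 598, with 1.15 (-0.75 as CPM).

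The protein disulfide isomerases parted from each other, from -0.49 to 1.76 on the TMM scale. Pdia2 is the isomerase typical of the pancreas and had the largest difference of them. It measured 1490 to 2582 TMM-scaled CPM in newborn-type libraries (median 1696) and 5306 to 7473 in adult-type libraries (median 5787), a log2 difference of 1.76 without overlap. As CPM the difference was -0.11, and the classes overlapped. P4hb (PDI), the general isomerase, measured 76.7 to 136 and 184 to 276, with 1.18 (-0.67 as CPM). Pdia3 (ERp57) works with calnexin and calreticulin on glycoproteins and went the other way. It measured 149.5 to 222 in the newborn type (median 189) and 108 to 172 in the adult type (median 127), a difference of -0.49 with overlap, and -2.35 as CPM without overlap. Without TCDD male pup 8, the highest adult-type library for this gene, Pdia3 was lower without overlap on the TMM scale too. The lectin chaperones that Pdia3 works with had 0.38 (Calr) and 0.24 (Canx) on the TMM scale, both overlapping, with -1.50 and -1.63 as CPM. Of all genes, 74.7% had a smaller TMM-scale difference than Calr, 67.6% than Canx and 26.1% than Pdia3.

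Of the translocon and signal processing genes, 3 of 8 were higher without overlap on the TMM scale, against 10.1% of all genes. Their median of 0.52 (-0.81 as CPM) was the smallest of the 4 roles on the TMM scale. Ssr4, a subunit of the translocon-associated protein complex, measured 944 to 1265 TMM-scaled CPM in the newborn type (median 1144) and 1820 to 2835 in the adult type (median 2503). Its difference was 1.10, and -0.81 as CPM, without overlap on either scale and in opposite directions. The other subunits of this complex had 0.17 (Ssr1) and 0.47 (Ssr3) and overlapped. Of the channel itself, Sec61a1, the pore, measured 3.23 to 5.30 and 5.91 to 12.1, with 0.88 (-0.73 as CPM), while Sec61b measured 1.35 to 2.41 and 1.48 to 5.25 and Sec61g 77.9 to 148.5 and 100.5 to 154, both overlapping. Spcs1 and Spcs2, subunits of signal peptidase, had 0.87 without overlap and 0.26 with overlap. Spcs2 measured 13.5 to 36.2 and 17.2 to 47.2.

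The degradation and ER-phagy genes were the role furthest above all genes, with 6 of 8 higher without overlap, against 10.1% of all genes, and a median of 1.48 on the TMM scale. As CPM the median was -0.24, with 0 higher and 3 lower without overlap, against 0.452% and 71.9% of all genes. Retreg1 (FAM134B), a receptor that brings ER sheets to the autophagosome, had the largest difference of the list. It measured 4.30 to 16.7 TMM-scaled CPM in newborn-type libraries (median 6.58) and 61.9 to 95.9 in adult-type libraries (median 74.6), a log2 difference of 3.20. Of the 11508 genes, 99.7% had a smaller difference on this scale. As CPM it was 1.42, with 6.73 to 25.9 against 21.9 to 55.2, so that the classes overlapped. Control female pup 4 was the highest newborn-type library at 16.7 on the TMM scale.

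Of the 7 ERAD genes, 5 were higher without overlap in the adult type on the TMM scale, against 10.1% of all genes. Edem1, a mannosidase-like protein that marks misfolded glycoproteins, measured 184 to 274 TMM-scaled CPM (median 221) and 567 to 1020 (median 793), with 1.82 (-0.09 as CPM). Herpud1, which organises the ERAD complex, measured 131 to 258 (median 170) and 390.5 to 861 (median 538), with 1.65 (-0.23 as CPM). Syvn1 (HRD1), the ubiquitin ligase of ERAD, measured 13.9 to 24.8 and 47.4 to 92.3, with 1.62 (-0.21 as CPM). Its partner Sel1l measured 760.2 to 1487 and 1604 to 2704, with 0.94 (-0.95 as CPM, lower without overlap). Of the derlins, channel proteins of ERAD, Derl3 measured 1.85 to 4.72 and 7.77 to 12.7 without overlap (1.34, and -0.25 as CPM), and Derl1 and Derl2 overlapped with 0.67 and 0.54.

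Of the sensor and stress genes, 4 of 8 were higher without overlap on the TMM scale, against 10.1% of all genes. Their median was 0.89 (-0.85 as CPM). Ern1 measured 3.39 to 5.64 TMM-scaled CPM in the newborn type (median 4.82) and 8.23 to 15.9 in the adult type (median 11.3), with 1.18 (-0.45 as CPM). Eif2ak3 measured 30.8 to 45.1 and 68.5 to 116, with 1.20 (-0.66 as CPM, lower without overlap). Atf6 measured 9.45 to 16.8 and 11.1 to 21.1 and overlapped, with 0.32 (-1.42 as CPM, lower without overlap). So the 3 sensors parted: the kinases Ern1 and Eif2ak3 did not overlap on the TMM scale and Atf6 did. Their transcription factors Xbp1 (146 to 212 and 244 to 399) and Atf4 (46.9 to 79.0 and 97.3 to 226) did not overlap either, with 0.71 and 1.06 (-1.15 and -0.84 as CPM).

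The downstream genes of prolonged stress overlapped between the types, with differences from -0.37 to 1.23 on the TMM scale. Ddit3 (CHOP), a factor that favours cell death, measured 0.559 to 2.42 TMM-scaled CPM in the newborn type (median 1.19) and 0.626 to 2.42 in the adult type (median 1.50), with nearly the same range, a difference of 0.18 (-0.86 as CPM). Trib3, a pseudokinase induced by Ddit3 and Atf4, measured 1.12 to 4.63 (median 2.65) and 0.403 to 5.84 (median 1.20), with -0.37 (-1.50 as CPM). Chac1, which degrades glutathione, measured 0.0946 to 1.98 and 1.41 to 6.36, with 1.23 on the TMM scale and 0.07 as CPM, overlapping on both. Of all genes, 95.9% had a smaller TMM-scale difference than Chac1. Raw counts were low for these genes, at 4 to 103 for Ddit3, 3 to 197 for Trib3 and 2 to 52 for Chac1, and also for Sec61b (11 to 68) and Ssr3 (14 to 70). Values of single libraries carry a wide counting error for these 5 genes. The 1 added to each mean before the log2 also shrinks their differences. The means of Chac1, for instance, were 0.779 TMM-scaled CPM in the newborn type and 3.17 in the adult type.

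**Figure D2:**
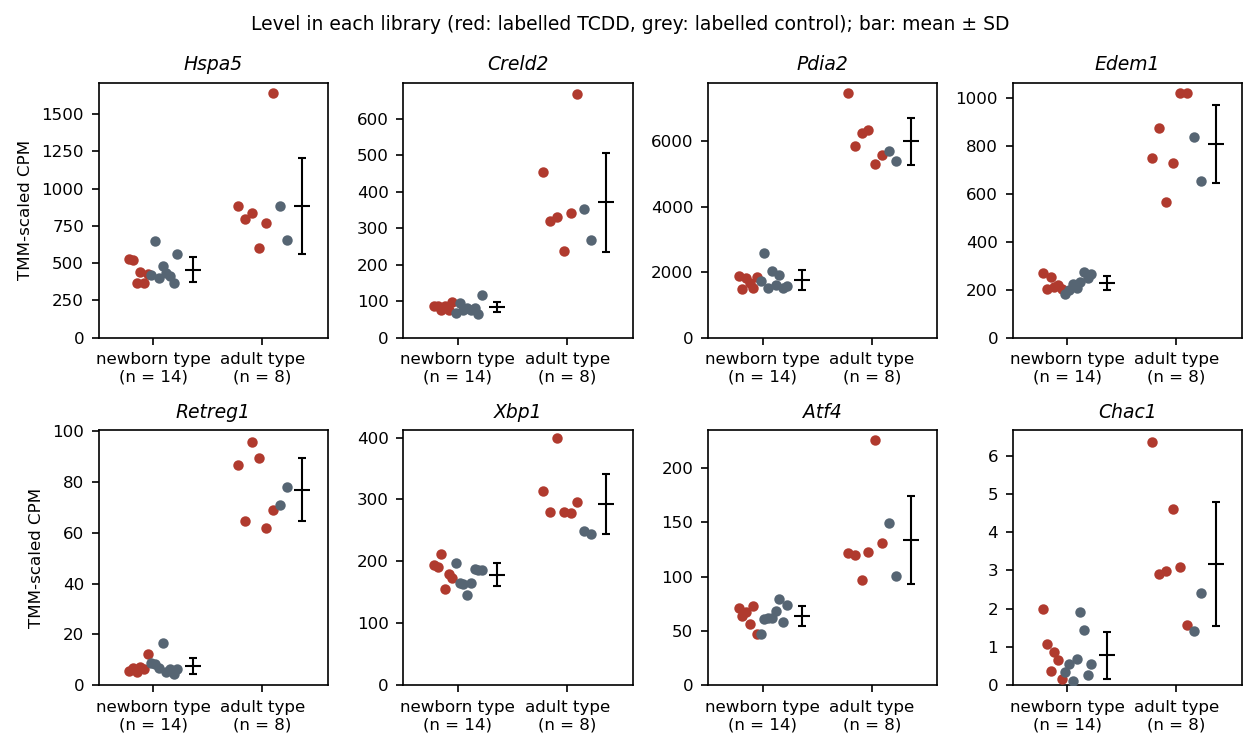
TMM-scaled CPM of 8 of the genes in each library (red for the TCDD label, grey for control), with mean and SD per type. Creld2, Pdia2, Edem1, Retreg1, Xbp1 and Atf4 do not overlap between the types on this scale, while as CPM of the total the classes overlap for each of these 6 and the means of Pdia2, Edem1, Xbp1 and Atf4 turn to lower in the adult type.

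A ratio to the secretory cargo does not depend on the scaling. This ratio was chosen after the data had been seen. Per 1000 counts of the 14 acinar markers, the 42 genes together had 71.7 to 107 counts in newborn-type (median 85.2) and 26.3 to 39.2 in adult-type libraries (median 33.6). Without Pnlip, which formed the classes, the medians were 85.3 and 42.5, and the classes still did not overlap. The chaperones had medians of 47.1 and 25.5 per 1000 counts without Pnlip, the translocon genes 16.9 and 6.51, the degradation genes 18.2 and 8.81, and the sensor and stress genes 3.82 and 1.31. Hspa5 alone had 5.89 and 2.01. Retreg1 had a higher median in the adult type, 0.0830 and 0.190, with overlap. The summed counts of all 4 roles were thus lower in every adult-type library, relative to acinar transcripts. Genes with many counts weigh most in these sums, such as Ssr4, with a newborn-type median of 14.4 against 16.9 for the translocon genes. Taken singly, Hspa5 and Ssr4 were lower in every adult-type library. Pdia2, Creld2 and Edem1 had lower medians in the adult type but overlapped. Pdia2 had 18.4 to 28.6 in the newborn type and 10.5 to 20.1 in the adult type. This ratio was not taken for the other genes singly.

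**Figure D3:**
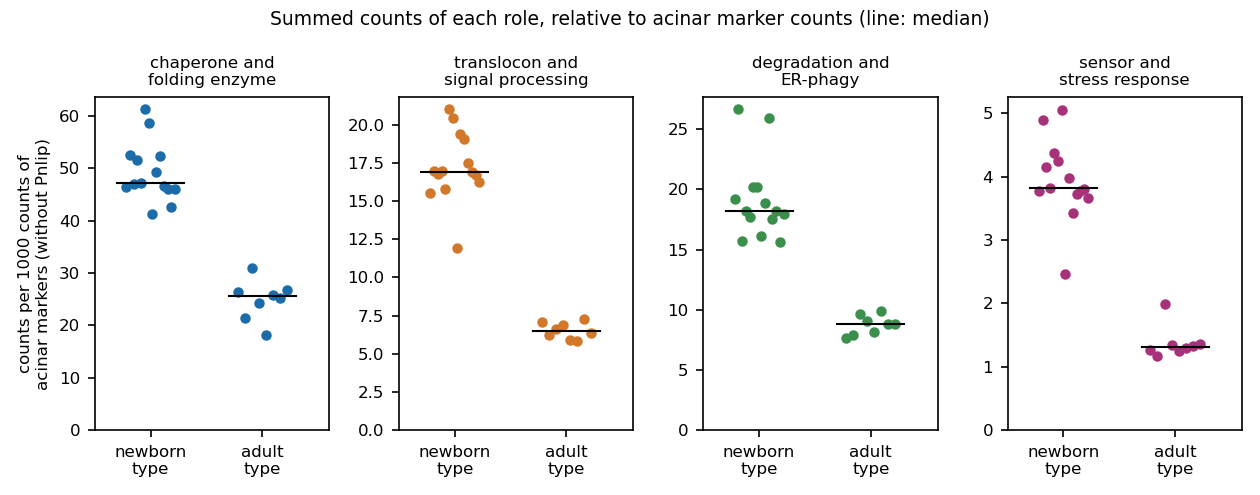
Summed counts of each role per 1000 counts of the acinar markers other than Pnlip, 1 point per library, with the median as a line. No role overlaps between the types, and the chaperone medians are 47.1 in newborn-type and 25.5 in adult-type libraries.

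Other genes of the same pathways, from lists that were also drawn up with results known, are given next, with counts of genes that did not overlap between the types. Over all genes these were 10.1% higher and 12.8% lower on the TMM scale, and 0.452% higher and 71.9% lower as CPM. Of 27 other folding factors measured above the minimum, 9 were higher and 7 lower on the TMM scale, and 2 higher and 20 lower as CPM. Nucb2 (log2 2.63), which binds calcium, and Ero1lb (2.52), the oxidase that recharges disulfide isomerases and is typical of the pancreas, were higher on both scales without overlap (0.71 and 0.61 as CPM). The ER peroxidases Gpx8 (-1.94) and Gpx7 (-1.76) were lower without overlap on both scales. Ero1l, the list's own oxidase, had 0.49 with overlap (-1.35 as CPM). Of 20 other ERAD genes, 10 were higher and 0 lower on the TMM scale (0 and 11 as CPM), led by Selenos (1.65) and Os9 (1.52), which turned to -0.18 and stayed at 0.14 as CPM. Of 7 other ER-phagy genes 1 was higher and 0 lower on the TMM scale, a share near that of all genes, and 0 were higher and 4 lower as CPM. The 1 was Ccpg1 (1.41, and -0.49 as CPM), which measured 119.75 to 164 in the newborn type and 276 to 474 in the adult type. Of 16 other targeting and translocation genes 5 were higher and 0 lower (0 and 11 as CPM), led by Sec11c of signal peptidase (1.86, and 0.23 as CPM). Of 19 genes of N-glycosylation 4 were higher and 1, Tusc3, was lower (-1.13, and -2.72 as CPM), with 0 and 13 as CPM. Of 22 other stress regulators 4 were higher and 1 lower (0 and 10 as CPM). The lower one was Creb3l3, a membrane-bound transcription factor of the ER, with 8.58 to 23.0 in the newborn type and 0 to 4.92 in the adult type (-2.33, and -3.56 as CPM without overlap). Nupr1 (2.50), a stress protein of acinar cells, measured 339.9 to 733 and 1069.9 to 4134, and Bhlha15 (1.90), the transcription factor of acinar secretory maturation, measured 2.84 to 10.4 and 16.5 to 32.8, both overlapping as CPM (0.62 and 0.21).

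Within the adult type, TCDD male pup 8 was the highest of the 8 libraries for 13 of the 18 chaperones and folding enzymes. It was also the highest for 2 of the 8 degradation and ER-phagy genes, Sel1l and Syvn1, for 2 of the 8 sensor and stress genes, Ern1 and Eif2ak3, and for Sec61b. Of the other 5 chaperones and folding enzymes, Dnajb9 and Ero1l were highest in TCDD male pup 11, Pdia2 and Pdia6 in TCDD dam 11, and P4hb in TCDD female pup 6. In TCDD male pup 8, Hspa5 measured 1644 TMM-scaled CPM, against 599.7 to 885 in the other 7. Pdia4 measured 135 in that library against 39.8 to 68.9, Creld2 668 against 239 to 455, and Hsp90b1 463 against 140 to 267. TCDD male pup 8 was the lowest for Dnajb9 (8.80 against 11.7 to 28.6), Atf6, Sec61g and Spcs2. It was within the others for Herpud1 (501), Ddit3 (1.70) and Chac1 (1.56). Herpud1 (861), Dnajb9 (28.6) and Atf4 (226) were highest in TCDD male pup 11. Xbp1 (399) and Trib3 (5.84) were highest in TCDD female pup 6, which was the lowest for 7 of the 18 chaperones. Chac1 (6.36) and Ddit3 (2.42) were highest in TCDD dam 11. Plasma cells, which also secrete protein in bulk, have 4 markers in the lists. These summed to 4.26 TMM-scaled CPM in TCDD male pup 8, to 76.1 to 81.6 in control dam 7, TCDD dam 8 and TCDD dam 11, and to 1.41 to 4.72 in the remaining adult-type libraries. Most of the high sums was Jchain, with 65.8 to 74.3 in those 3 libraries and 0.142 in TCDD male pup 8. Sdc1 had the other order, with 3.27 in TCDD male pup 8 and 1.07, 1.98 and 1.67 in those 3. Lymphocyte markers (8 genes) were 7.24 in TCDD male pup 8 and 2.03 to 120 in the others. Probes detected numbered 22871 in TCDD male pup 8 and 22786 in TCDD dam 11, against 17614 to 19072 in the other adult-type libraries. The stage genes and the Y-linked genes of TCDD male pup 8 both went against its label. The part of these cells, or of what raised the number of detected probes, in the levels of the 42 genes was not tested.

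**Figure D4:**
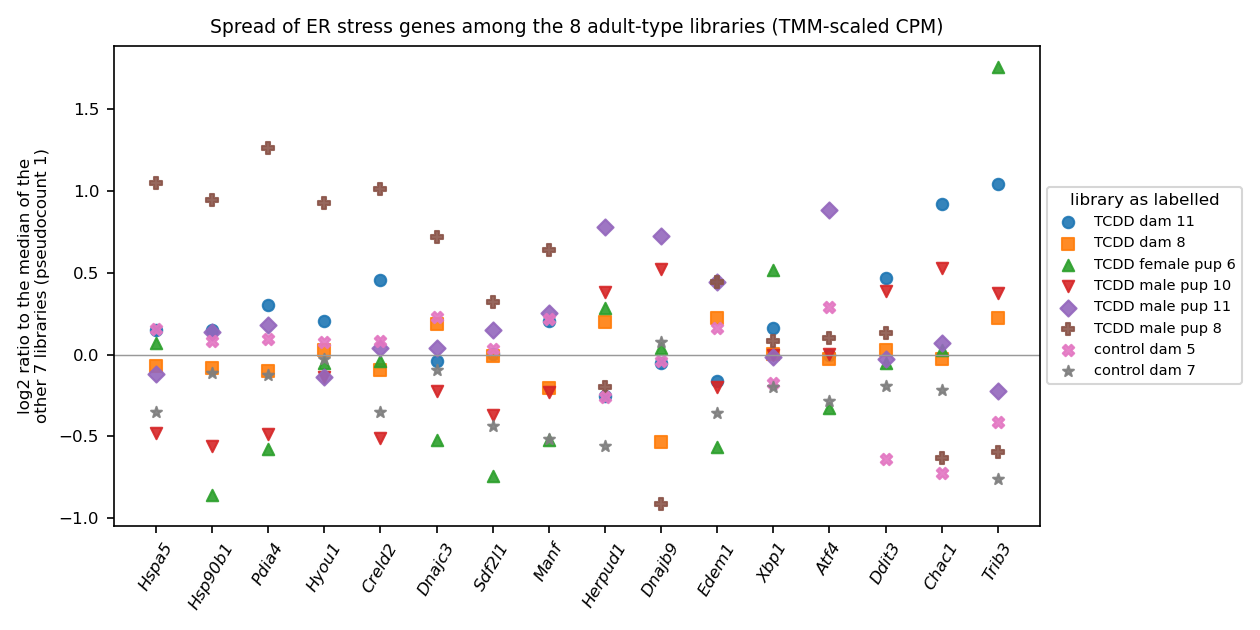
Log2 ratio of each adult-type library to the median of the other 7 for 16 genes, on TMM-scaled CPM. TCDD male pup 8 stands highest from Hspa5 to Manf and lowest for Dnajb9, and TCDD male pup 11 stands highest for Herpud1, Dnajb9 and Atf4.

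The spread of 3 chaperones in the adult type rested largely on TCDD male pup 8. The coefficient of variation of Hspa5 was 18.2% in the newborn and 36.6% in the adult type, that of Hsp90b1 10.96 and 37.6%, and that of Pdia4 13.9 and 46.2%. Without TCDD male pup 8 the adult-type values were 14.3% for Hspa5, below the newborn-type value, 21.8% for Hsp90b1 and 19.3% for Pdia4. The highest newborn-type library for Hspa5 was control dam 4 (646), which was also the highest for Ddit3 (2.42) and Trib3 (4.63). Its summed acinar markers were 119780 TMM-scaled CPM, against 61104 to 88264 in the other 13 newborn-type libraries, and their part in these values was not tested. Across the 14 newborn-type libraries log2 levels of Hspa5 and Herpud1 rose together (Pearson r = 0.788, permutation p = 0.00081, adjusted over 12 relations 0.00972). Spearman's rho was 0.732 (permutation p = 0.00411, adjusted 0.0493; 0.675 as CPM, adjusted permutation p = 0.0715), and r was 0.758 without the 2 libraries farthest from the median of Hspa5. Hspa5 and Ddit3 had r = 0.671 (permutation p = 0.00849, adjusted 0.0374) and rho = 0.530 (permutation p = 0.0542, adjusted 0.208), with r = 0.593 without 2 libraries. Ddit3 and Trib3 had r = 0.660 (permutation p = 0.00935, adjusted 0.0374) and rho = 0.525 (permutation p = 0.0564, adjusted 0.208), and r = 0.369 without 2 libraries, so this relation rested on them. Hspa5 and Hsp90b1, both chaperones with an ERSE in the promoter, had r = 0.060 (permutation p = 0.836, adjusted 0.912) and rho = -0.103 (permutation p = 0.727, adjusted 0.969) in the newborn type, and r = -0.256 without 2 libraries. In the 8 adult-type libraries the same pair had r = 0.756 (exact permutation p = 0.0523, adjusted 0.126) and rho = 0.619 (exact permutation p = 0.115, adjusted 0.276), and r was -0.047 without 2 libraries, 1 of them TCDD male pup 8. Ddit3 and Chac1 had r = 0.806 there (exact permutation p = 0.0168, adjusted 0.0505) and rho = 0.690 (exact permutation p = 0.0694, adjusted 0.208), with r = 0.485 without 2 libraries. The other 6 relations had adjusted p-values of at least 0.584 by permutation for both measures. All of these p-values are two-sided. The permutations treated the libraries of a type as independent, although some share a litter number by their labels. Dams, pups and both chemical labels were pooled, so the p-values may be too small.

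The study's own question was the response to TCDD. The label was compared within each library type, so that the groups did not differ in type, with edgeR's quasi-likelihood test and Benjamini-Hochberg adjustment over all probes. None of the 42 genes passed at an adjusted p of 0.05 in these comparisons. The chemical label was taken as given. In 13 of the 22 libraries stage or Y-linked genes went against the label, and whether the chemical label held was not tested. The comparisons are therefore between labels and not between known exposures. In the newborn type (6 libraries labelled TCDD, 8 control) 0 of 17109 probes passed (0%), and 554 had an unadjusted p under 0.05. In the adult type (6 labelled TCDD, 2 control) 0 of 13513 passed (0%), with 388 under 0.05 unadjusted. The test of the difference between the types, over 19209 probes, also called 0 (0%), with 1523 under 0.05 unadjusted. Of the 42 genes 0, 1 and 2 had an unadjusted p under 0.05 in these 3 tests. DESeq2 called 0 of the 42 genes in each, and 0, 0 and 21 probes.

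In the newborn type the smallest p-values were those of Calr, Hyou1 and Derl1. Calr measured 93.4 to 137 TMM-scaled CPM in control-labelled (median 120) and 115 to 157 in TCDD-labelled libraries (median 133), a log2 fold change of 0.20 ± 0.10 (SE, unadjusted p = 0.058 and adjusted p = 1 by edgeR). Hyou1 had 0.21 ± 0.11 and Derl1 0.28 ± 0.16 (SE), and Derl1 had 0.13 without TCDD male pup 6. No fold change of the 42 genes exceeded 0.28 in size there. In the adult type Herpud1 measured 390.5 and 480.0 in the control-labelled libraries and 482 to 861 in the TCDD-labelled ones (median 592). Its fold change was 0.48 ± 0.21 (SE, unadjusted p = 0.041 and adjusted p = 1 by edgeR). The groups nearly met, at 480.0 and 482, and the share of all genes that part in this way was not counted. Trib3 measured 0.403 and 0.782 against 0.568 to 5.84, with 1.94 ± 0.91, and Sec61a1 5.91 and 7.20 against 7.16 to 12.1, with 0.57 ± 0.28. Of the 42 genes 33 had a positive fold change in the adult type and 21 in the newborn type. The 2 control-labelled adult-type libraries serve every gene, so these signs are not independent.

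**Figure D5:**
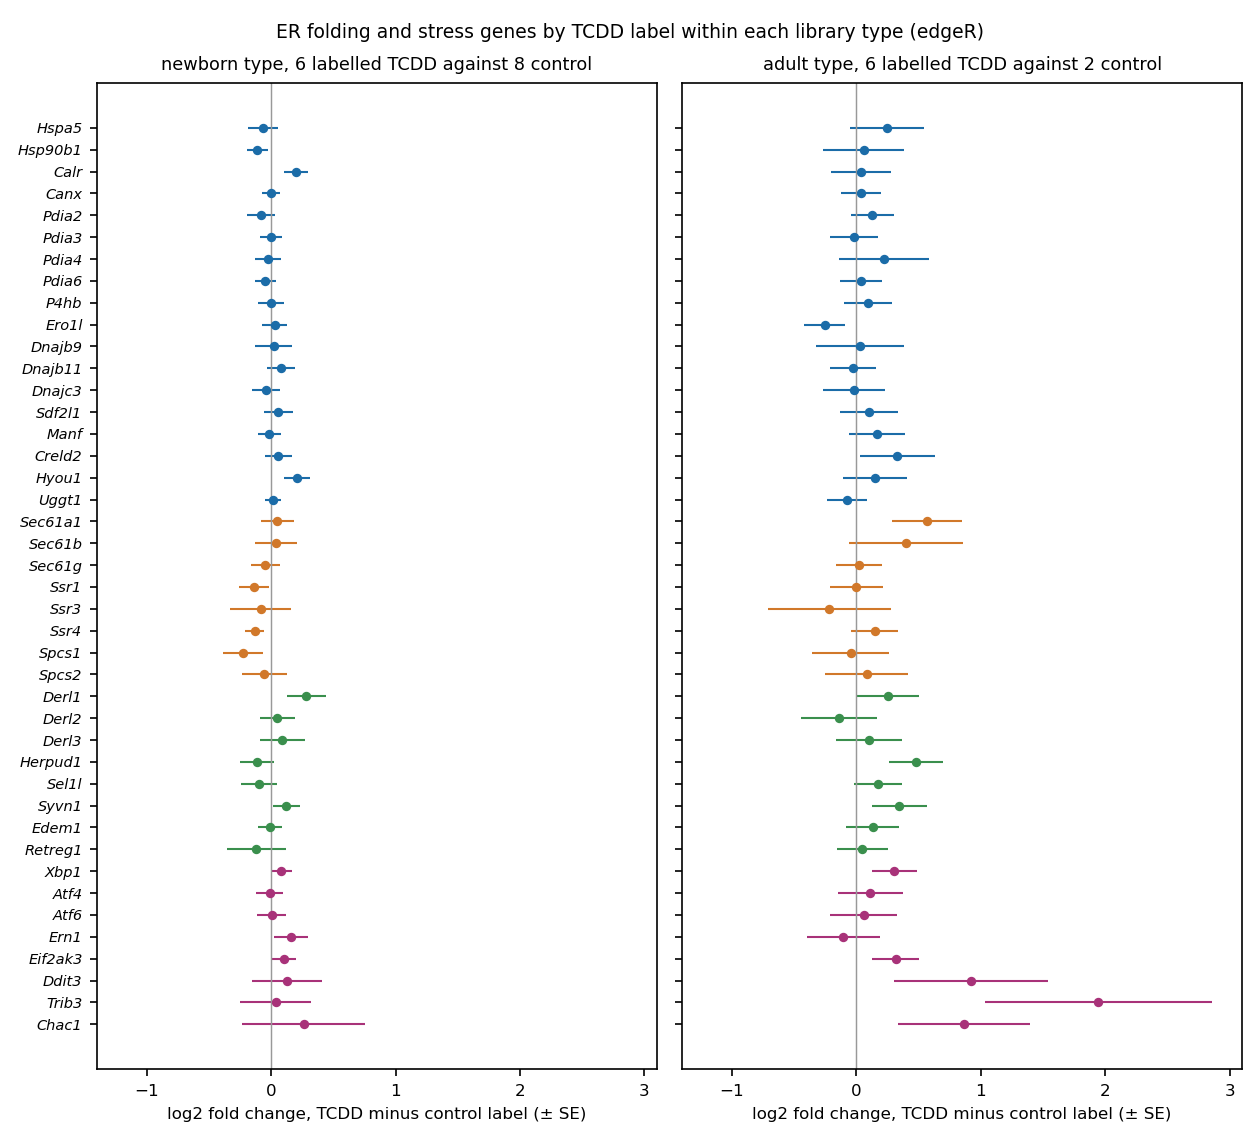
Log2 fold change (TCDD minus control label, ± SE, edgeR) of the 42 genes in newborn-type and adult-type libraries. No gene passed at an adjusted p of 0.05, the newborn-type values lie within 0.28 of 0, and the widest error in the adult type is that of Trib3 (0.91).

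Taken as labelled, the groups mixed the 2 types. The dams (15594 probes) and the female pups (17513 probes) gave 0% of probes past the threshold and 0 of the 42 genes, with 150 and 299 probes under 0.05 unadjusted. The male pups gave 0 of 16176 (0%), with 2703 under 0.05 unadjusted, among them 22 of the 42 genes. All 3 libraries labelled control male pup were newborn type, as was TCDD male pup 6, while the other 3 labelled TCDD male pup were adult type. DESeq2 called 489 of 10552 probes (4.63%) in the male pups, with 11 of the 42 genes, all higher under the TCDD label: 6 of degradation and ER-phagy and 5 chaperones. Retreg1 led them (3.32 ± 0.55, adjusted p = 3.53e-06 by DESeq2). Without TCDD male pup 6, edgeR called 6451 of 15379 probes (41.9%) and 29 of the 42 genes, all higher, with Retreg1 at 3.71 ± 0.20 and Pdia2 at 1.77 ± 0.14. In that setting the label and the type cannot be told apart, since every TCDD-labelled library was adult type and every control newborn type. With the type as a covariate, the label effect in the male pups rested on TCDD male pup 6 alone, the 1 TCDD-labelled library of the controls' type. In that fit 0 of the 42 genes passed by edgeR and 5 had an unadjusted p under 0.05, which describes that library and not the label. Each replicate is a separate animal by its label. Even the 2 most alike libraries of 1 type and chemical label differed beyond counting error, with a chi-square of 7.47 per degree of freedom. This value cannot show separate animals, since 2 preparations of 1 animal could also differ beyond counting error. Libraries of different type or chemical label were not compared in this way.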

How the data were processed

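RNA of whole pancreas was measured with TempO-Seq, per the labels' protocols. Base calls went through bcl2fastq 2.17.1.14 (submitters' processing notes). An aligner or build was not given in the sources used here. The authors deposited raw counts for 30146 probes in 22 libraries, with no normalization per the file headers, and 0 columns were left unused. The members and lists described here, the named genes included (all 42 members, and of each other list the 2 largest and 2 smallest differences), were chosen with earlier results of these data known. Types were compared as log2((mean + 1)/(mean + 1)) of 1 probe per gene, with no test. The TCDD label was tested on the counts with edgeR 4.0.16 in R 4.3.3 (filterByExpr, TMM, quasi-likelihood, Benjamini-Hochberg, threshold 0.05), and with DESeq2 1.42.0 as an alternative. Fits were tested on simulated data. Litter numbers pair a dam with its pups but each litter had 1 treatment, so limma 3.58.1 (voom, duplicateCorrelation) took the number as a random block, with a consensus correlation of 0.0129 in the newborn type, 0.0706 in the adult type and 0.0153 over both. Correlations used permutation tests (exact for 8 libraries, 100000 resamples for 14). Counts are reads, not molecules, and p-values measure the spread between these libraries, which are separate animals by their labels only.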

Additional observations from a re-analysis of the deposited data

Results flagged for a closer look

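Among the 42 genes, single libraries stood apart in 8 cases (TMM-scaled CPM), by the gap to the nearest other library in relation to the range of the group. The groups were the 8 newborn-type libraries labelled control, the 6 labelled TCDD and the 8 adult-type libraries. The rule was applied to each of the 42 genes in each of these groups. Chance flags about 1 in 20 of such gene and group pairs, so chance alone would give a number of flags not far from 8. In the adult type, TCDD male pup 8 was highest for Hspa5 (1644, others 599.7 to 885), Pdia4 (135.2, others 39.8 to 68.9) and Hyou1 (104.2, others 50.4 to 62.8), and TCDD dam 11 was highest for Sec61g (154, others 100.5 to 121). Of the newborn-type libraries labelled control, control male pup 7 was highest for Manf (254.8, others 158 to 194) and control dam 4 for Ddit3 (2.421, others 0.858 to 1.20). Of those labelled TCDD, TCDD male pup 6 was highest for Sec61g (148.5, others 77.9 to 98.2) and TCDD female pup 8 was lowest for Ern1 (3.412, others 5.03 to 5.55).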

How the results depend on the processing

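Between the types, the scale decided the direction. The median difference of the 42 genes was -0.81 as CPM of the total in place of 0.95, with 0 genes higher and 16 lower without overlap in place of 23 and 0. It stayed between 0.86 and 0.98 with each library left out and was 0.98 with a pseudocount of 0.1, chosen after seeing the data. Leaving out single libraries gave 23 to 24 genes higher and 0 to 1 lower, the 1 being Pdia3 without TCDD male pup 8. Without the 13 libraries against their labels 28 were higher and 1, Pdia3, was lower. For the male pups as labelled, DESeq2 called 11 of the genes and single libraries left out gave 0 to 29. With the litter number as a replicate block, 0 of the genes passed in the newborn type, the adult type and their difference, and the block changed no other call. Over all probes, the adult type gave 112 calls without a filter on low counts and 2 without control dam 5. The difference between types gave 9 without the filter, 21 by DESeq2, and 0 to 46 with single libraries left out, the most without control dam 5. None of these calls was a gene of the list by its main probe. Without the libraries against their labels the newborn-type fold change of Hyou1 was -0.10. As CPM, r of Hspa5 and Hsp90b1 in the newborn type was -0.209, and r of Hspa5 and Ddit3 in the adult type was 0.00281 in place of -0.0197; r of Ddit3 and Chac1 in the adult type was 0.824 with an adjusted permutation p of 0.0463. The cause of these changes was not tested. With 2 control-labelled adult-type libraries and counts of 2 to 197 for Ddit3, Trib3 and Chac1, depth and group size limit what could be called.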

Other observations

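Further lists drawn up with results known held genes downstream of the ER. Over all genes, 10.1% were higher and 12.8% lower without overlap on the TMM scale, and 0.452% higher and 71.9% lower as CPM. Of 24 targets of Atf4 and the amino acid response, 13 were higher and 0 lower without overlap in the adult type on the TMM scale, with a median log2 difference of 0.79 (-0.73 as CPM, 0 higher and 10 lower). Mthfd2, of mitochondrial folate metabolism, measured 62.2 to 120 TMM-scaled CPM in the newborn type and 236 to 416 in the adult type, with 1.86 (-0.03 as CPM). Slc7a11, the cystine transporter, measured 2.04 to 6.01 and 7.38 to 18.6, with 1.75 (0.10 as CPM). Ddit4 and Psat1 overlapped between the types, with 0.18 and 0.23 (-1.41 and -1.43 as CPM).

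Of 25 genes of transport from the ER to the Golgi, 8 were higher and 0 lower without overlap on the TMM scale. Their median was 0.61. As CPM the median was -1.18 and 20 were lower without overlap, a share near the 71.9% of all genes. Mcfd2, a cargo receptor subunit, measured 47.8 to 71.5 and 184 to 352, with 2.13 (0.23 as CPM, overlapping). Preb, the exchange factor that starts COPII coat assembly, measured 5.41 to 11.1 and 16.3 to 35.1, with 1.29 (-0.42 as CPM). The coat subunits Sec23a and Sec24b overlapped between the types, with -0.27 and -0.10 (-0.88 and -1.85 as CPM).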
